A study of Mus musculus with 24 samples.

Results

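The clustered replication histone genes are the many short genes that encode the core histones H2A, H2B, H3 and H4 and the linker histone H1, and they lie in tight clusters on a few chromosomes. They were taken from the count table by name: rows whose symbol starts with H2ac, H2bc, H3c or H4c followed by a digit, and H1f1 to H1f5. The rule matched 59 rows, and 54 with a count in at least 3 of the 24 libraries were kept, of 28859 genes in the table. The 5 that were dropped, H2ac11, H2ac12, H2bc1, H3c1 and H3c3, had counts in 2 libraries or fewer. Of the 54 genes, 5 encode H1, 11 encode H2A, 16 encode H2B, 10 encode H3 and 12 encode H4, and 44 lie on chromosome 13 and 10 on chromosome 3.

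The libraries come from the lateral septum (LS), a forebrain region rich in inhibitory neurons, of male C57BL/6J mice aged 8 to 14 weeks with no transgene or other allele named. In 4 groups the mice were sampled after 1, 4, 7 or 10 days of chronic social defeat (CSDS, a stress model), in which an aggressive CD-1 mouse confronts the animal for 10 min a day and then stays behind a barrier. The other 4 groups were age-matched controls of the same days, housed without defeat. Each group had 3 libraries, and the labels do not state that each came from a separate animal, so p-values measure the spread between libraries, which may be technical.

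Replication histone genes supply the protein that packages newly made DNA, and their transcripts are abundant in dividing cells during S phase. Their mRNAs usually have no poly(A) tail and end instead just after a short stem-loop that the stem-loop binding protein recognises. Non-dividing cells such as neurons make little of them, but some of these genes also give polyadenylated transcripts that run past the stem-loop, and those are what a poly(A)-selected library can hold. A level given here is therefore the level of the poly(A)-selected transcripts of a gene, not of all its mRNA.

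The ends of the transcripts are shown for the genes on which most values below rest, since they bear on what poly(A) selection can take up. All 54 genes matched a transcript in GENCODE M21 (build GRCm38), used only for sequence because the counts are on build GRCm39. A stem-loop match of 16 bases (GG, any 3 bases, TTNTNA, any 3 bases, CC), searched on the transcript strand, was found in 37 of the 54 genes, against 3.65% of the 55450 genes annotated there. It is printed in capitals below with 5 bases on each side.
H1f2 stem-loop: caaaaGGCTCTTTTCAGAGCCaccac
H2bc6 stem-loop: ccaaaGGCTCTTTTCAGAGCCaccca
H2ac18 stem-loop: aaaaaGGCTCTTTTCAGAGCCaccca
H4c9 stem-loop: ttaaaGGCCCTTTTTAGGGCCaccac
H4c4 stem-loop: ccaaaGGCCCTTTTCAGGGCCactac
Of the 17 genes without a match, 8 are annotated by their coding sequence only, so their ends were not searched in full. In 19 genes an annotated transcript ran 100 bases or more past the stem-loop, by 840 bases in H1f2 and 1861 in H2bc6.

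The poly(A) signal AATAAA, searched in the last 40 bases of each transcript, was found in 11 of the 54 genes, against 35.6% of all annotated genes. Of the 4 genes with the most counts, 3 were among them, and their last 30 bases are printed with the signal in capitals. The H2bc6 end belongs to a different annotated transcript than its stem-loop above, while for H1f2 both belong to the same transcript.
H1f2 end: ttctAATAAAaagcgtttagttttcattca
H2bc21 end: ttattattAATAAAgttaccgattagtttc
H2bc6 end: tcaagacaagaaataAATAAAtgaaaatta
H2bc4, the gene with the most counts, had neither a stem-loop match nor a poly(A) signal in its annotated transcript. The 11 genes with the signal had a median mean level of 0.344 FPKM (fragments per kilobase of gene length, scaled to library size) and the 43 without it 0.111, a difference given as a description only.

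Near-identical copies limit how far counts can be assigned to single genes. Transcripts were cut into windows of 150 bases, the length of a read, and compared with other genes, whether or not among the 54. Of the 54 genes, 16 shared at least 50% of their windows with another gene, and 11 shared none. H2bc18 shared 33.6%, but with none of the other histone genes kept here. H2ac18 shared 87% of its windows with H2ac19, and H2ac19 shared 100% with H2ac18. H3c14 shared 100% of its windows with other genes, H3c13 and H3c15 among them. H3c15 shared 59.4%, and H4c12 shared 53.4%, with other H4 genes among its matches. The values of these genes are uncertain as values of single genes. H1f2, H2bc21 and H4c4 shared no window, H4c9 2.1%, H2bc6 9.4% and H2bc4 17.4%.

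The sequence before the start site was read for 50 of the 54 genes from RefSeq (GRCm38.p6), as 250 bases. Both strands were searched for 3 motifs known from histone promoters. The octamer ATTTGCAT was present in 4 of 11 H2A and 5 of 14 H2B promoters and in none of those of H1, H3 and H4, against 1.61% of 27025 promoters. CCAAT was present in all 5 H1, all 11 H2A and all 14 H2B promoters and in 7 of 9 H3 promoters, but in 3 of 11 H4 promoters, against 34.46% overall. TATAAA was found in every class, from 6 of 14 promoters for H2B to 4 of 5 for H1, against 12.97% overall. A match is a description of letters, not of a bound site, and H2bc4 had no entry in this table.

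Total counts per library ran from 31182747 to 41205354, and the markers of LS neurons, such as the GABA transporter Slc32a1 and the GABA-synthesis enzymes Gad1 and Gad2, were present in every library, with a summed level of 2832 to 4056 CPM (counts scaled to a common library size by TMM) over 10 markers. Control library 1 of day 10 stood apart. It had the lowest total, 6.03% of its counts fell on the single locus LOC118568312, against at most 0.0939% elsewhere, and its Ttr, a choroid plexus gene, was the highest at 8945 CPM. It also held counts for 46 of the 54 histone genes, while no other library held more than 42. Results for day 10 are given with and without it.

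Summed over the 54 genes, 52641 counts fell on replication histone genes in all libraries together. That was between 41.96 and 87.2 CPM per library without TMM scaling, with a median of 55.5. H2B genes took 68.9% of the summed counts (95% Wilson interval 68.5 to 69.3, counting error only), H1 genes 19.3%, H4 genes 7.18%, H2A genes 2.4% and H3 genes 2.18%. H2B and H1 genes thus held most of the poly(A)-selected histone counts, and the 5 classes were far from even.

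The top 4 genes held 85.6% of the counts (85.3 to 85.9). They were H2bc4 with 20823, H2bc21 with 9558, H1f2 with 9422 and H2bc6 with 5238. The other 50 genes shared 7600 counts, and 33 of them had fewer than 100 in all 24 libraries together. None of those 33 passed the filter on low counts, and neither did H4c3 and H4c14.

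Levels per length put the genes in a similar order, but they depend on the length behind the deposited FPKM. That length was 725 bases for H1f2 and 403 for H4c9, whose annotated transcripts have 1560 and 727. It was 2667 for H2bc21 and 2510 for H2bc6, whose longest transcripts have 2620 and 2506. Reads on the long ends of H1f2 and H4c9 may thus not be counted. In mean CPM, H1f2 and H2bc21 were close, at 10.4 and 10.6. H2bc4 had a mean of 29.7 ± 6.18 FPKM (SD over 24 libraries) with a range from 21.7 to 43.0, and H1f2 followed with 14.3 ± 3.93 and a range from 7.95 to 23.9. H2bc4 had the highest mean of the histone genes, and its range overlapped that of H1f2 narrowly. Next came H2bc21 with 3.96 ± 0.536 FPKM, H4c9 with 3.48 ± 1.55, H4c8 with 2.99 ± 1.35 and H2bc6 with 2.31 ± 0.723, whose ranges overlapped one another. H4c12 with 1.40 and H3c15 with 1.04 closed the group at or above 1 FPKM, and the other 46 genes had means between 0.00964 and 0.829 FPKM. The highest H2A genes, H2ac19 and H2ac18, had means of 0.803 and 0.651 FPKM.

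**Figure D1:**
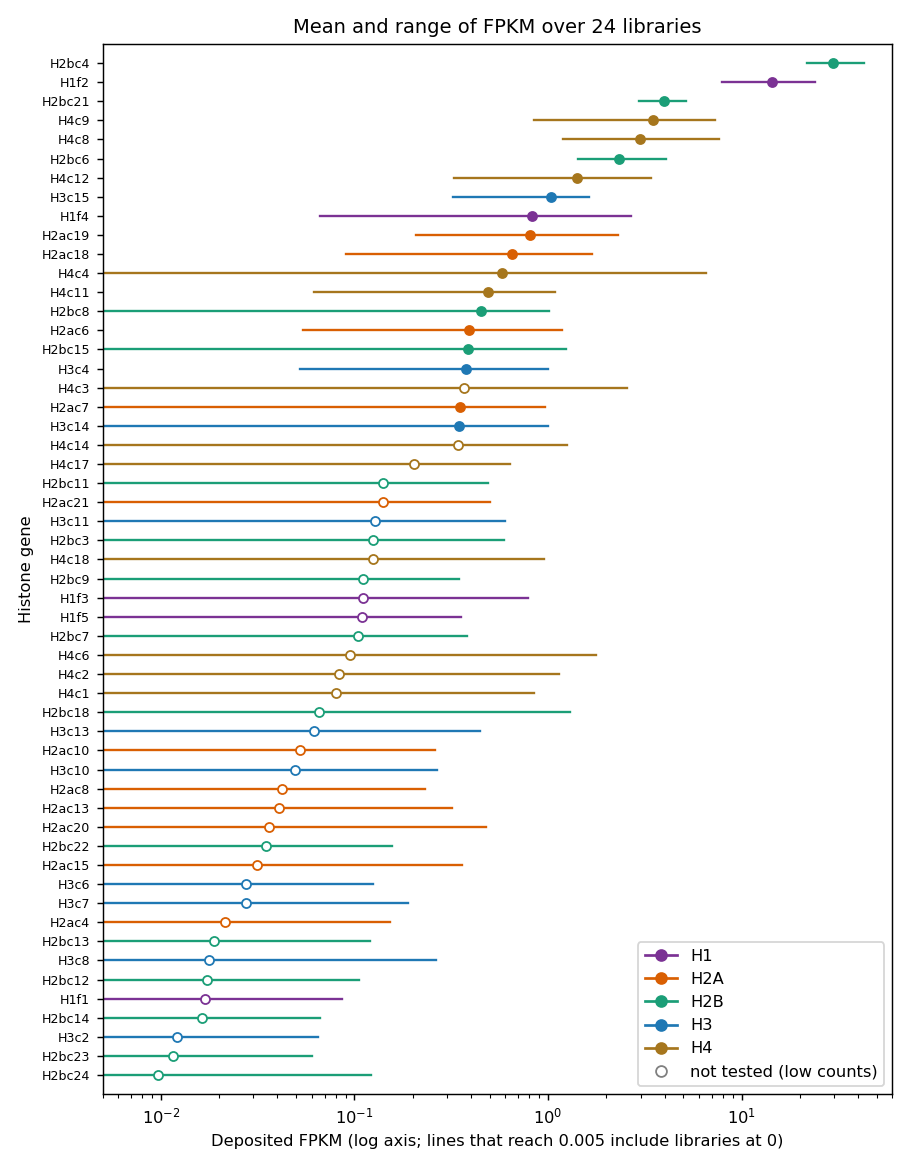
Mean deposited FPKM of each of the 54 histone genes (dots) with the lowest and highest of 24 libraries (lines) on a log axis, coloured by histone class, with open dots for genes too low to test. H2bc4 at 29.7 and H1f2 at 14.3 lie above all others, and most genes lie below 1 FPKM.

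H2A and H2B genes often sit head to head and share the stretch between their starts, so H2A and H2B genes next to each other in RefSeq gene order were compared per length. H2bc4 had 29.7 FPKM where its neighbour H2ac6 had 0.389, a ratio of 76.3. The length behind the FPKM of H2ac6 was 487 bases, while its annotated transcript has 2482, so reads on its long end may not be counted. H2bc21 had 3.96 FPKM and its neighbour H2ac20 had 0.0361, a ratio of 109.6. H2ac20 had 14 counts in all, 7 of them in control library 1 of day 10, and without that library the ratio was 235.2. H2bc15 over H2ac15 likewise moved from 12.3 to 22.2. The H2B gene was the higher one in 5 of 7 such neighbouring pairs. The exceptions were H2bc13, at 0.465 times the level of H2ac13, and H2bc7, at 0.298 times that of H2ac7. Both rest on few counts, with 8 for H2bc13, 16 for H2ac13 and 42 for H2bc7 in all libraries. H2ac13 shared 86.1% and H2ac7 59.3% of their windows with other genes, so their levels are uncertain as those of single genes.

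By comparison, some of the histones that non-dividing cells use in place of the replication set were higher per length than any replication histone gene. H3f3a and H3f3b, which encode the replacement histone H3.3, had means of 108 and 81.5 FPKM, and H2az1, which encodes the variant H2A.Z, had 74.5. H1f0, the linker histone of differentiated cells, had 41.9 FPKM against 14.3 for H1f2. Other replacement and variant histones lay below the 29.7 FPKM of H2bc4. H2az2 had 18.6, H1f10 15.7, Macroh2a1 14.5, H2aj 10.6, Macroh2a2 7.39, Cenpa 0.505 and H4f16 0.0731. These are levels of poly(A)-selected transcripts, which for the replication genes are not all of their mRNA. The highest replication H3 gene, H3c15, had 1.04. Mki67, a marker of dividing cells, had a mean of 0.620 FPKM.

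Against age-matched controls, no replication histone gene passed the test (edgeR quasi-likelihood, Benjamini-Hochberg adjusted p under 0.05) on days 1, 4 or 7, and 1 of the 19 tested did on day 10. That gene was H2bc6, which was lower after 10 days of CSDS. These 19 of the 54 genes had passed a filter on low counts across all groups and held 97.6% of the histone counts. A gene can pass the filter through the groups in which it is high, so counts over the 19 describe these genes and not all 54.

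On day 1, H2bc4 had 20.5, 19.8 and 21.2 CPM in the controls and 26.8, 23.6 and 23.9 in the stressed libraries. The groups did not overlap, but the log2 fold change of 0.27 (SE 0.15) did not pass (adjusted p = 0.680). H2bc21 had 10.6, 10.6 and 10.8 CPM against 10.9, 13.1 and 11.5, also without overlap. H2bc6 had 5.11, 3.81 and 3.66 CPM against 6.28, 4.52 and 6.88, and H1f2 had 13.8, 12.1 and 12.8 against 13.3, 12.8 and 10.6. In both the groups overlapped.

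None of the 19 was called on day 1, where 0.00554% of all genes were. By unadjusted p, 1 gene lay under 0.05, against 7.88% of all genes. It was H2bc6 with a log2 fold change of 0.49 (SE 0.19, adjusted p = 0.601), and DESeq2 also called 0. H2bc4 came next by p, with the values given above, and then H4c9 with 0.58 (SE 0.33, adjusted p = 0.691). Of the 19, 14 had a value above 0, with a median of 0.30, against 48% above 0 and a median of -0.01 among all 18060 genes tested. Over all 54, 30 had a higher and 22 a lower group mean under CSDS. H2bc4, H2bc21 and H3c15 were the 3 genes whose stressed libraries all lay above the controls, a pattern seen in 5.3% of all genes.

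On day 4, the summed level was 55.2 ± 11.2 unscaled CPM in controls and 47.7 ± 2.47 under CSDS (SD, n = 3), and the groups overlapped. None of the 19 was called, where 0.111% of all genes were. Under an unadjusted p of 0.05 lay 2 genes, against 8.33% of all genes, and DESeq2 called 0. H4c9, an H4 gene, had 1.47, 1.03 and 1.77 CPM in controls and 0.713, 0.564 and 0.842 under CSDS. Every stressed library lay below every control, as in 8.41% of all genes, yet the log2 fold change of -1.01 (SE 0.36) had an adjusted p of 0.417. H2bc4 had 26.9, 17.1 and 27.2 CPM against 17.2, 18.5 and 19.3, where control library 2 lay below all 3 stressed libraries (-0.37, SE 0.15, adjusted p = 0.503).

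For the remaining genes on day 4, H2bc6 had a log2 fold change of -0.38 (SE 0.19, adjusted p = 0.638). H1f2 had 9.02, 5.86 and 9.09 CPM in controls and 7.36, 9.43 and 8.86 under CSDS, with full overlap. Values above 0 were found for 6 of the 19 genes, against 50.4% of all genes, and the median was -0.34, against 0.00 among all genes. Over all 54, 35 had a lower and 15 a higher group mean under CSDS.

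On day 7, none of the 19 was called, where 0.00554% of all genes were, and DESeq2 called 0. Under an unadjusted p of 0.05 lay 1, against 4.28% of all genes. The smallest p was that of H2bc6, with 5.17, 6.98 and 7.64 CPM in controls and 4.38, 5.23 and 4.12 under CSDS. The ranges overlapped narrowly, and the log2 fold change was -0.53 (SE 0.19, adjusted p = 0.999). H2bc21 had -0.26 and the H2A gene H2ac6 had 1.26, both with the same adjusted p. H2ac6 had 0.0533, 0.157 and 0.200 CPM in controls and 0.369, 0.337 and 0.283 under CSDS, and was the 1 gene of the 19 higher in all stressed libraries, a pattern of 4.95% of all genes. H3c4, an H3 gene, was the 1 gene lower in all of them, as in 4.88% of all genes, with 0.107, 0.209 and 0.229 CPM against 0.105, 0.0259 and 0.0514. Its lowest control and highest stressed library on day 7 both had 4 counts. Of the 19, 5 had a value above 0, with a median of -0.16, against 50.8% above 0 and a median of 0.00 among all genes. Over all 54, 29 had a lower and 20 a higher group mean under CSDS. Among the 35 too low to test, 15 were lower and 15 higher.

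After 10 days the stressed and control libraries stood farthest apart. H2bc6, an H2B gene with a long annotated transcript, had 10.7, 8.92 and 9.14 CPM in controls and 4.30, 4.82 and 5.37 under CSDS. All stressed libraries lay below all controls, with a log2 fold change of -0.99 (SE 0.19, adjusted p = 0.0380). It was 1 of 19 called, where 0.166% of all genes were called, 0.116% as lower. DESeq2 called H1f2 and H2bc4 besides H2bc6, or 3 of the 10 histone genes it gave an adjusted p, against 0.845% of all genes. In edgeR, 9 of the 19 lay under an unadjusted p of 0.05, against 12.8% of all genes.

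The day 10 controls held the highest H2bc6 levels of the series. They had 317, 344 and 370 counts, and in CPM they were the 3 highest of all 24 libraries, where the next highest was 7.64. The day 10 stressed libraries, at 4.30 to 5.37 CPM, lay within the range of the stressed libraries of days 4 and 7, from 3.59 to 5.82. A high level in these controls and a fall under stress cannot be told apart in this design. Without control library 1 the log2 fold change was -0.91 (SE 0.21), with an adjusted p of 0.137. In bulk tissue, fewer cells of a type and less RNA per cell cannot be told apart either.

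The other main genes had values in the same direction without passing the test. H1f2, the linker histone H1.2, had 12.3, 14.6 and 17.2 CPM in controls and 7.50, 10.4 and 9.50 under CSDS (log2 fold change -0.69, SE 0.17, adjusted p = 0.105). H2bc4 had 35.1, 32.4 and 28.9 CPM against 18.3, 25.1 and 22.2 (-0.55, SE 0.15, adjusted p = 0.165). H2bc21 had 10.8, 10.8 and 12.1 against 8.05, 8.54 and 9.73 (-0.36, SE 0.13, adjusted p = 0.272). None of these 3 genes overlapped between the groups. Without control library 1 their log2 fold changes were -0.81, -0.49 and -0.39.

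**Figure D2:**
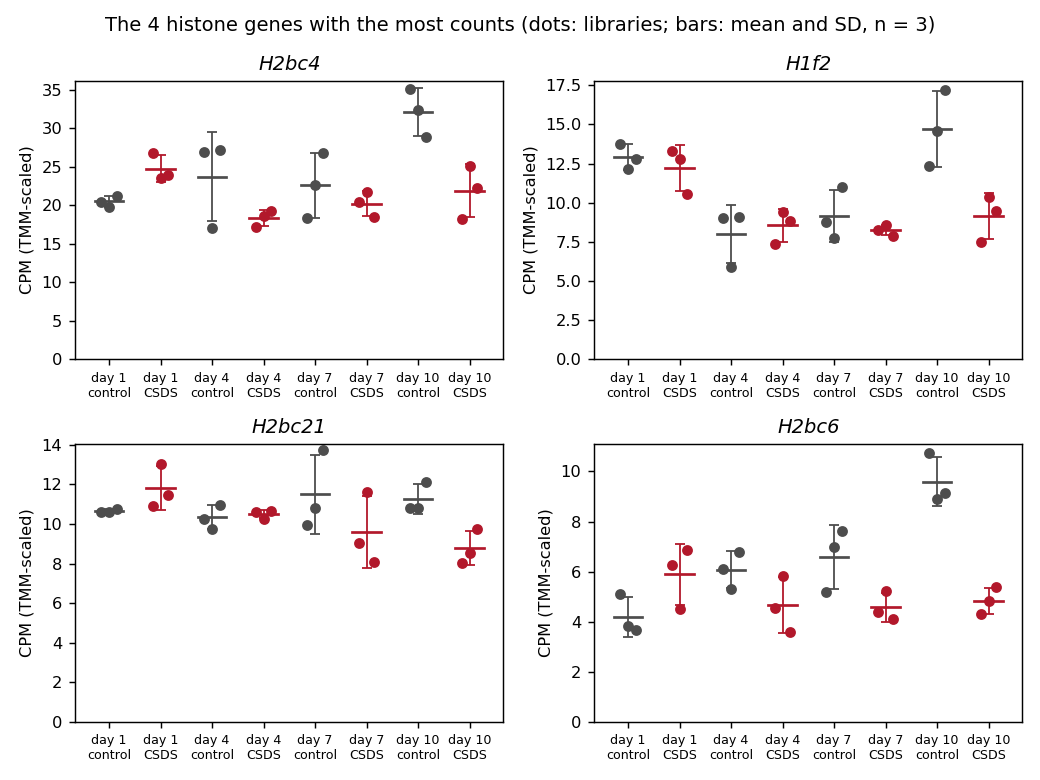
TMM-scaled CPM of the 4 histone genes with the most counts in each of 24 libraries (dots) by day and arm, with the group mean and SD (bars, n = 3). For H2bc6 the 3 day 10 controls lie between 8.92 and 10.7 CPM, above all other libraries.

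Of the H4 genes, H4c9 had 2.10, 1.32 and 1.09 CPM in day 10 controls and 0.657, 0.341 and 1.06 under CSDS (log2 fold change -1.12, SE 0.36, adjusted p = 0.222). H4c8 had 3.49, 2.23 and 1.95 against 1.40, 1.48 and 1.03 (-0.96, SE 0.35, adjusted p = 0.275). Neither overlapped. H4c12 had 0.576, 0.259 and 0.247 against 0.137, 0.438 and 0.206 and did overlap, and its log2 fold change of -0.42 became 0.05 without control library 1. H3c15, the highest H3 gene, had 1.12, 0.933 and 0.790 CPM against 0.575, 0.949 and 0.774, with overlap (-0.30, SE 0.36).

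The largest day 10 difference by size was that of H4c4, and 1 library held most of it. H4c4 had 2.78, 0.363 and 0.124 CPM in controls and 0.0274, 0 and 0.310 under CSDS. The log2 fold change was -3.21 (SE 0.99, adjusted p = 0.212) and -1.09 without control library 1. For H1f4, the linker histone H1.4, the values were 2.20, 0.648 and 1.23 CPM against 0.411, 0.365 and 0.645, without overlap, and the log2 fold change moved from -1.51 to -0.99 without that library.

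All 19 genes had a day 10 value below 0, with a median of -0.92, while 53.7% of all genes lay above 0 with a median of 0.02. The controls and stressed libraries did not overlap in 10 of the 19, all lower under CSDS, against 7.17% of all genes. These 10 were H1f2 and H1f4 for H1, H2ac7 for H2A, H2bc4, H2bc6 and H2bc21 for H2B, H3c14 for H3, and H4c8, H4c9 and H4c11 for H4. For H2ac7 the lowest control and the highest stressed library both had 3 counts, so only the scaling to library size set them apart. Without control library 1, 16 of the 19 lay below 0, against 45.8% of all genes, and their median was -0.69. H2ac19, H3c4 and H4c12 were the 3 that turned.

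**Figure D3:**
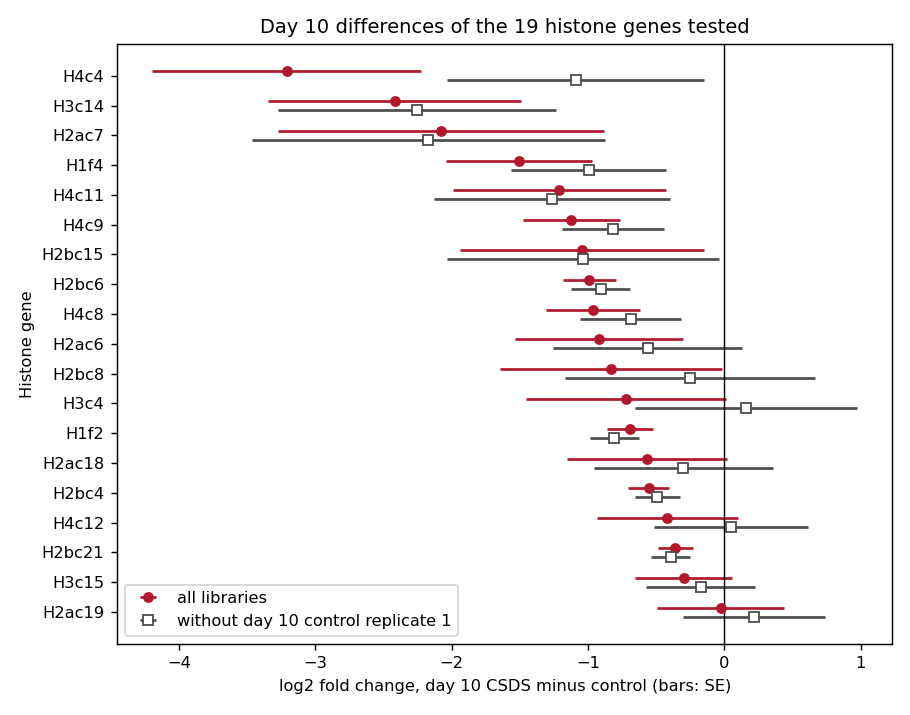
Log2 fold change (CSDS minus control, day 10) of the 19 tested histone genes with its SE, from all libraries (filled) and without control library 1 of day 10 (open squares). All 19 filled points lie below 0, from -3.21 for H4c4 to -0.03 for H2ac19, and 3 open squares lie above 0.

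Over all 54 genes, tested or not, 50 had a lower group mean under CSDS on day 10, 2 a higher one and 2 an equal one. Without control library 1 the counts were 35, 16 and 3. Of the 35 genes too low to test, 31 were lower with that library and 19 without it. The majority of lower values among the untested genes was much smaller without this library.

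The summed level was lower under CSDS with and without that library. It was 87.2, 77.2 and 76.3 unscaled CPM in day 10 controls and 42.0, 55.1 and 51.5 under CSDS, and the day 10 controls lay above all 21 other libraries, of which the highest was a day 1 stressed library at 73.6. Summed over the 4 genes with the most counts, the controls had 65.3, 67.7 and 67.7 and the stressed libraries 37.2, 48.7 and 45.5. For the other 50 genes the controls had 21.9, 9.53 and 8.56 and the stressed libraries 4.73, 6.38 and 5.97. For the 4 main genes the 3 controls lay close together, and their order turned with TMM scaling (69.0, 66.7 and 67.4 CPM), while for the other 50 control library 1 was far above its group on both scales. The log2 ratio of the unscaled group means was -0.70 for all 54 genes, -0.61 for the 4 and -1.23 for the other 50. Without control library 1 it was -0.63, -0.63 and -0.67.

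Other measures also differed in part between the day 10 groups, but none of the marker genes read here was called. By unadjusted p, none of the choroid plexus, ependyma and newborn neuron markers lay under 0.05, against 12.8% of all genes. Of the 5 endothelium markers, 3 did, with a list median of -0.21. The 8 choroid plexus markers, Ttr the most abundant, were all detected and all had day 10 values below 0. Their summed level was 9817, 6918 and 3075 CPM in controls and 96.3, 6861 and 90.6 under CSDS, so the groups overlapped through stressed library 2 only. In every group of the series but the day 4 controls, the library with the most Ttr also had the highest summed histone level. Day 10 stressed library 2, with 6297 CPM of Ttr, had 55.1 unscaled CPM of histone genes. Day 10 control library 3, with 2733 CPM of Ttr, had 76.3. The 6 ependyma markers summed to 115 to 147 CPM in controls and 103 to 129 under CSDS, ranges that overlapped. The 6 markers of newborn neurons all had day 10 values above 0, and they summed to 601, 577 and 561 CPM in controls and 646, 633 and 663 under CSDS, without overlap. Malat1, a nuclear RNA, had 328, 83.2 and 70.3 CPM in controls and 62.4, 52.4 and 47.3 under CSDS. The libraries of days 1, 4 and 7 ran from 166 to 448 CPM. Control library 1 of day 10 thus lay within the range of the earlier days, and the other day 10 libraries of both arms lay below it. The part of these differences in the histone values was not tested.

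Control library 1 of day 10 was the highest of the 24 libraries in CPM for 26 of the 54 histone genes, or 48.1%, against 9.45% of the 26102 genes of the table with a count in at least 3 libraries. Among genes tested it was 7 of 19 against 10.7%, and among genes too low to test 19 of 35 against 6.62%. Of the 26 genes, 15 had 10 or more counts there. The library has the smallest total, so that 1 count is worth more CPM in it than in any other. The share was largest among H4 genes, with 9 of 12, and it was 3 of 5 for H1, 6 of 16 for H2B, 4 of 10 for H3 and 4 of 11 for H2A. H4c4 had 82 counts there and at most 14 in any other library. H4c3 had 30 against at most 14, H4c6 21 against at most 5, and H4c2 16 against at most 2. H2bc18 had 20 counts there and at most 2 elsewhere, and H1f3 19 against at most 5. Mki67 was lowest in the same library, at 1.56 CPM. The other day 10 libraries had 2.70 to 5.29 CPM, and the highest value of the series, 11.6, was that of a day 4 control. The summed level of 27 genes of S phase and proliferation was 190 CPM in control library 1 of day 10, against a series median of 188.

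**Figure D4:**
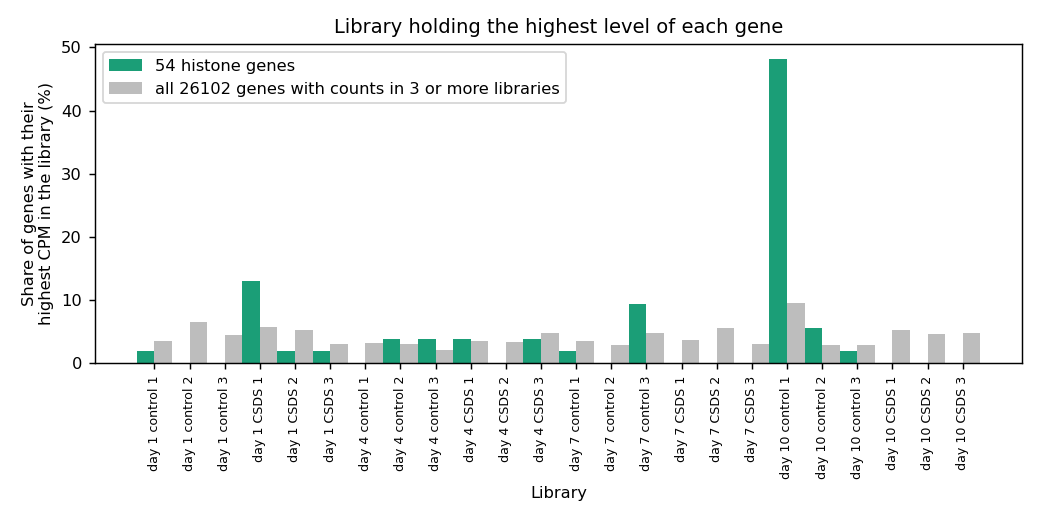
Share of genes whose highest CPM of the 24 libraries falls in each library, for the 54 histone genes (green) and all 26102 genes with a count in at least 3 libraries (grey). Control library 1 of day 10 holds 48.1% of the histone genes, low ones included, and 9.45% of all genes.

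Averaged over the 4 days, none of the 19 genes was called, where 0.116% of all genes were. By unadjusted p, 4 lay under 0.05, against 6.47% of all genes, and DESeq2 called 0. H2bc6 had the smallest p, with a mean log2 fold change of -0.35 (SE 0.10, adjusted p = 0.322). H2bc4 had -0.20 (SE 0.08, adjusted p = 0.577) and H4c9 -0.42 (SE 0.17, adjusted p = 0.636). A difference between days in the CSDS response was tested directly, and none of the 19 passed, where 0.0221% of all genes did. The smallest adjusted p were 0.106 for H2bc6, 0.263 for H2bc4 and 0.269 for H4c9. By unadjusted p 5 lay under 0.05, against 11% of all genes. DESeq2 called H2bc6 (adjusted p = 9.13e-04), where it called 1.26% of all genes.

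Differences between days within an arm were common among all genes, and histone genes were called about as often. Among controls, 9 of the 19 differed between days, where 40.7% of all genes did. Among stressed libraries 7 of the 19 did, where 47.9% of all genes did. Day, age and the handling of each day's libraries cannot be told apart, and these shares are near the background.

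Among controls the genes called were H2bc6 (adjusted p = 4.95e-04), H1f2 (7.54e-04), H2bc4, H4c8, H2ac18, H4c4, H2ac19, H2ac6 and H1f4. H2bc6 had group means of 4.20 ± 0.800, 6.07 ± 0.747, 6.60 ± 1.28 and 9.60 ± 0.994 CPM on days 1, 4, 7 and 10 (SD, n = 3). Its day 1 controls all lay below those of the later days. H2bc4 had 20.5, 23.7, 22.6 and 32.1 CPM in the same order, and H4c8 had 0.945, 1.11, 1.24 and 2.56. Both were highest on day 10. H1f2 was highest on days 1 and 10, at 12.9 and 14.7 CPM, against 7.99 and 9.15 on days 4 and 7. Without control library 1 of day 10, H1f4, H2ac6, H4c4 and H4c8 were no longer called and H4c12 was, which left 6 genes.

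Among stressed libraries the genes called were H4c9 (adjusted p = 3.94e-04), H4c12 (0.00365), H3c14, H2ac18, H1f2, H2bc21 and H3c4. H4c9 had group means of 2.34, 0.706, 1.40 and 0.685 CPM on days 1, 4, 7 and 10. H1f2 had 12.2, 8.55, 8.24 and 9.13, H2bc21 had 11.8, 10.5, 9.59 and 8.77, and H3c4 had 0.356, 0.138, 0.0609 and 0.129. All 4 were highest on day 1. H2bc6 was not among them and had 5.89, 4.66, 4.57 and 4.83 CPM.

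A high day 1 was shared by both arms for some genes. This comparison, day 1 against the mean of days 4, 7 and 10, was chosen after the values were seen. H2ac18 had 0.734, 0.608 and 0.791 CPM in day 1 controls and 0.598, 0.877 and 0.905 in day 1 stressed libraries. All 6 lay above all 18 later libraries, which ran from 0.0516 to 0.508 CPM. The log2 difference over both arms was 1.78 (SE 0.30, adjusted p = 8.30e-05).

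The near-identical H2ac19 had 0.595 to 1.32 CPM on day 1 and 0.125 to 0.610 later, with a log2 difference of 1.20 (SE 0.25, adjusted p = 5.98e-04). H3c14, which lies in the same chromosome 3 cluster, had 0.259 to 0.623 CPM on day 1 and 0 to 0.305 later (2.07, SE 0.40). H4c12, on chromosome 13, had 0.555 to 1.32 on day 1 and 0.137 to 0.915 later (1.27, SE 0.25). It shared 53.4% of its windows with other genes, so its values too are uncertain as those of a single gene. Day 1 libraries overlapped the later ones in these 3 genes. With H4c9 (0.75) and H1f2 (0.42), 6 of the 19 were called higher on day 1, where 23.7% of all genes were, so the share was near the background. In controls alone H2bc6 was lower on day 1, with a log2 difference of -0.79 (SE 0.16, adjusted p = 0.00156), where 6.36% of all genes were called lower.

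**Figure D5:**
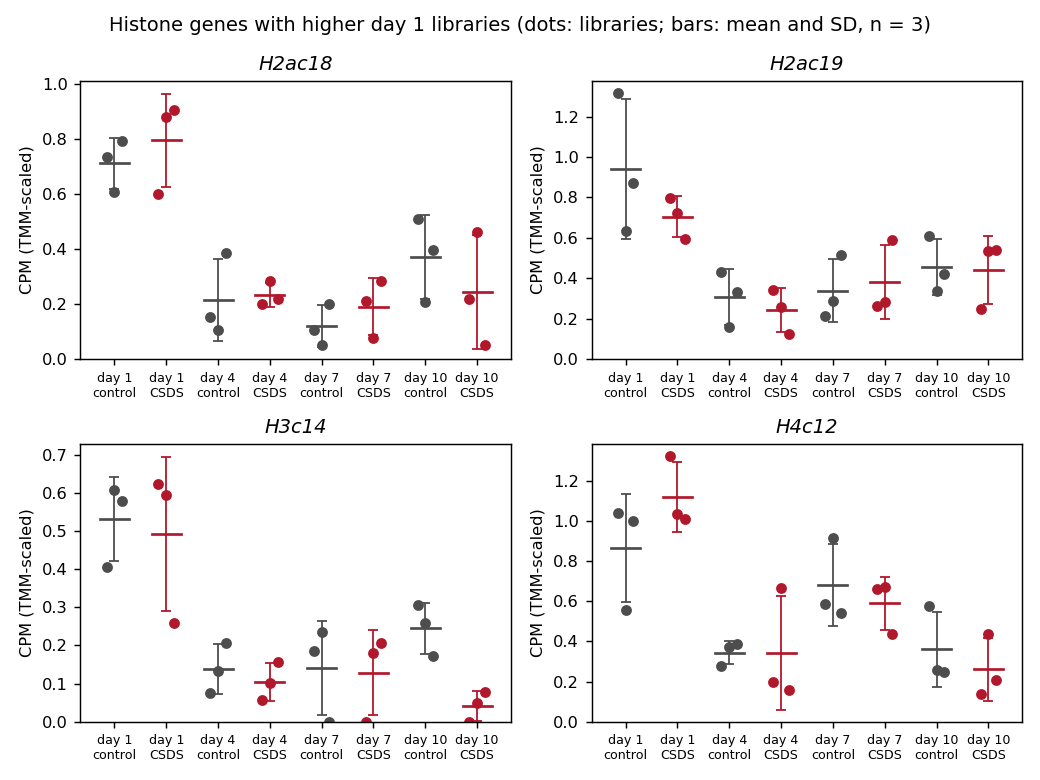
TMM-scaled CPM of H2ac18, H2ac19, H3c14 and H4c12 in each of 24 libraries (dots) by day and arm, with the group mean and SD (bars, n = 3). For H2ac18 the 6 day 1 libraries lie between 0.598 and 0.905 CPM, above all 18 later ones.

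The genes that make and use replication histones were read from further lists. None of the 18 genes of histone mRNA transcription and 3-prime processing was called on any day, nor averaged over days. Slbp, which encodes the stem-loop binding protein, had a median of 20.3 CPM over the 24 libraries, and Npat, the activator of histone gene transcription, had 33.1. The median log2 fold change of this list lay between -0.03 and 0.05 on the 4 days. None of the 20 histone chaperones was called either, nor any of the 10 replacement and variant histones tested, with medians between -0.06 and 0.03. At an unadjusted p under 0.05, between 0 and 3 genes of each of these lists lay on any day, against 4.28% to 12.8% of all genes.

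None of the 27 genes of S phase and proliferation was called on any day, and 1 to 3 lay under an unadjusted p of 0.05, against the same 4.28% to 12.8% of all genes. Their median log2 fold changes were -0.21, -0.12, -0.15 and 0.05 on days 1, 4, 7 and 10. Of the 27, 18, 20 and 19 had a value below 0 on days 1, 4 and 7, and 24 did averaged over days. On day 10, 16 of the 27 had a value above 0. All 19 histone genes tested lay below 0 that day, and 16 of them without control library 1. A link between the 2 sets of genes was not tested. The summed level of the list was 190, 194 and 193 CPM in day 10 controls and 180, 195 and 188 under CSDS, so the groups overlapped. Differences between days were called for 9 of the 27 among controls and 6 among stressed libraries, Mki67 among both, where 40.7% and 47.9% of all genes were called.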

How the data were processed

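Per the labels, LS tissue was lysed in TRIzol, and poly(A)-selected directional libraries were read as 150-base pairs. The submitters' processing notes name fastp, HISAT2, HTSeq and the build GRCm39, without tool versions. The authors deposited whole-number counts per gene and FPKM per gene for 24 libraries. How reads that match several genes were counted is not given in the sources used here. The deposited FPKM are the count over the library total and 1 length per gene.

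The histone genes and all lists were chosen with earlier results of these data known. The count model was run in edgeR 4.0.16 under R 4.3.3, where filterByExpr by group left 18060 genes, libraries were scaled by TMM, and 1 quasi-likelihood model was fitted to the 8 group means (16 residual degrees of freedom). The Benjamini-Hochberg adjustment covered all genes tested, p-values are two-sided, and an adjusted p under 0.05 counted as called. CPM are TMM-scaled, also in the sums over marker and other listed genes. Summed levels of the histone genes are shares of raw counts, unless TMM scaling is named. SE is the absolute log2 fold change over the root of F. The script was tested on simulated data. Genes described with their values were those called in any comparison, the 8 with the highest mean FPKM, the 2 highest of each class, and the 3 with the smallest p in each comparison. Others, among them those named for control library 1 of day 10, were chosen after their values were seen. Alternatives added after seeing the data were day 10 sums under TMM scaling or without control library 1 and the gene sets compared by highest library.

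Of 144 list entries 132 were in the table, 1 by a synonym. H2ax and a list of 11 short RNAs without a poly(A) tail were not analysed here. The alternatives were RLE size factors, no filter or at least 1 CPM in 3 libraries, DESeq2 1.42.0, limma 3.58.1 on log2(FPKM + 1) or log2(FPKM + 0.1) where 3 libraries reached 0.5 FPKM, a block for the replicate number, the day's libraries alone, and each library left out in turn.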

Additional observations from a re-analysis of the deposited data

How the results depend on the processing

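H2bc6 on day 10 kept its direction under every alternative run, with log2 fold changes from -1.10 to -0.73. Its call, and with it the count of histone genes called, became 0 with the day 10 libraries alone (adjusted p = 0.241). In the runs that left out 1 library the count was 0 to 1, and it was 0 in 12 of 24 runs, with adjusted p from 0.0233 to 0.255. Among the day 10 libraries the call was lost without control library 1 (0.137) or 2 (0.0658) and without stressed library 1 (0.255), 2 (0.0832) or 3 (0.0947). Elsewhere it was lost, with adjusted p up to 0.0604, without day 1 control library 2 or 3, day 1 stressed library 1 or 3, day 4 control library 1, day 4 stressed library 1 or day 7 stressed library 1. DESeq2 called 3 genes on day 10, H1f2, H2bc4 and H2bc6, and 1 gene, H2bc6, for a response that differs between days. The cause was not tested. The summed day 10 log2 ratio of -0.70 became -1.23 for all genes but the 4 with the most counts (-0.67 when control library 1 was also left out) and, for all 54 genes, ranged from -0.78 to -0.59 with 1 library left out. H4c12 on day 10 reversed to 0.048 without control library 1, and its values with 1 library left out ran from -1.04 to 0.05.

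Among stressed libraries, the count of genes that differed between days fell from 7 to 4 with at least 1 CPM in 3 libraries, a filter that tests fewer genes, and ran from 4 to 9 with 1 library left out. It was 4 without day 1 stressed library 1 or 3. Among controls the count ran from 6 to 10, lowest without control library 1 of day 10. The 6 genes called higher on day 1 were 3 under the same filter and stayed 6, the same genes, with any 1 library left out.

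Groups share replicate numbers, but libraries of the same number did not deviate together (correlations from -0.423 to 0.181), so the numbers were not taken as pairs. With the replicate number as a block, 0 histone genes were called on day 10 (H2bc6 adjusted p = 0.0766). Counts of 0 on days 1, 4 and 7 and averaged over days stayed 0 under every alternative run. Genes at under 100 counts in all are limited by depth.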
